A study of Mus musculus with 4 samples.

Results

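The 39 protein-coding Hox genes of the mouse, which lie in 4 clusters named Hoxa, Hoxb, Hoxc and Hoxd, were followed through 3 cultures of mouse embryonic stem cells (mESCs) and 1 culture of trophoblast stem cells (TSCs). Members were chosen by name alone, as every Hox gene of paralog groups 1 to 13, and were matched through their Ensembl identifiers. The rule uses no measured value, although results of these data were known when it was written. They are 39 of the 37620 gene identifiers in the count tables, with 11 genes in Hoxa, 10 in Hoxb, 9 in Hoxc and 9 in Hoxd. Hoxa3 had a further identifier that was at 0 in every sample, so 40 identifiers carry the 39 names.

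Hox genes encode homeodomain transcription factors that give cells their position along the head-to-tail axis of the embryo. Within a cluster the genes are arranged in the order in which they are used, from anterior paralogs that come on early to posterior paralogs that come on late, and retinoic acid, Wnt and FGF signals together with the Cdx factors open them in that order. In pluripotent cells the clusters are known to be held mostly silent by Polycomb complexes at promoters that are rich in CpG.

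RNA was sequenced from 4 samples, 1 per condition and without replicates. The mESCs were of the R1 line, and the TSCs, the stem cells of the placenta, were of the F4 line. All mESC samples were collected at day 2 and received CHIR99021 at 3 µM, which inhibits GSK3, and PD0325901 at 1 µM, which inhibits MEK, without added LIF in the condition named 2i−L. A JAK inhibitor at 2.0 µM was present in addition in 2iJ. The cells of 2iJ+B−A received everything given in 2iJ plus BMP4 (10 ng/ml) and ALK5 inhibitor II (10 µM), and ALK5 is a receptor of the TGF-β family. The R1 cells had been maintained with serum and without feeder cells, and the study's methods give serum in the medium of the treatments as well. For the TSCs the label names day 2 too and no treatment, so that cell line, cell type and medium cannot be told apart in any comparison with the TSC sample, and BMP4 and the ALK5 inhibitor cannot be told apart in 2iJ+B−A. Where 4 values are listed without names, their order is 2i−L, 2iJ, 2iJ+B−A and TSC.

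Counts of read pairs on the transcript strand came to between 33913984 and 36964392 per sample. They were scaled for library size to CPM, the number of counts in every 1000000, with TMM factors from edgeR, and 3 counts, the smallest signal taken as detected, amount to between 0.0799 and 0.0902 CPM. Ratios are on the log2 scale after adding 0.5 CPM to each level, and a gene is called higher or lower where its ratio reaches 1 in either direction, which is 2-fold on that scale. Folds are given from the scaled counts without the added 0.5 CPM, with exact 95% binomial intervals, and levels with exact Poisson intervals. These intervals cover counting error only, since no spread between cultures can be measured, and every difference below compares libraries. The labelled cell types were checked against markers. Pou5f1, which encodes the pluripotency factor Oct4, was at 899, 885, 658 and 1.34 CPM and thus nearly absent in TSCs. Elf5, a TSC transcription factor, was at 298 CPM in TSCs and at most at 0.133 CPM in the mESC samples.

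Hox transcripts were scarce in all 4 samples. The 39 genes together held 1013, 1029, 1636 and 1291 counts, or 30.5, 30.0, 43.6 and 36.8 CPM. With at least 3 counts as the limit, 32, 31, 34 and 25 of the 39 genes were detected in this order, beside 68.5%, 69.8%, 70.4% and 65.5% of the 22337 protein-coding genes. 23 genes were detected in all 4 samples, and Hoxd12 in none. Hoxa2, Hoxa11, Hoxc4 and Hoxc5 were detected in every mESC sample and not in TSCs, and Hoxb3, Hoxb5, Hoxb6 and Hoxb8 were detected in 2iJ+B−A and not in the other mESC samples. The share of all genes with either pattern was not computed. Some of these genes lay near the limit of 3 counts, such as Hoxc5, with 3 in 2iJ and 0 in TSCs. Hoxb3 had 4 counts in 2iJ+B−A, 1 in 2iJ and 4 in TSCs. A gene without a count in a sample could still be present, for which 3 counts are the floor used here, and the exact Poisson interval reaches somewhat higher, to 0.107 CPM in 2iJ. To set genes beside each other, levels per exon length were computed as TPM, which sums to 1000000 over the genes of a sample. On this scale the highest Hox gene in 2iJ+B−A was Hoxb9, at 11.3 TPM. The median of the genes with at least 1 CPM in a sample was 14.8, 14.9, 15.7 and 19.2 TPM, and no Hox gene lay above that median in its sample. The median Hox gene was at 0.259, 0.215, 0.400 and 0.166 TPM.

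A few genes carried most of the signal. The 5 Hox genes with the most counts held 63.3%, 63.2%, 64.7% and 70.2% of all Hox counts. Hoxb9, Hoxc4 and Hoxc13 were among these in each mESC sample, as the grid of counts by cluster and paralog group shows. In TSCs, Hoxc13, Hoxd13, Hoxa7 and Hoxb4 were among them, and Hoxb9 and Hoxc4 had 7 and 2. Within Hoxb the counts were concentrated at the posterior end in the mESC samples. In 2i−L and 2iJ, each gene from Hoxb1 to Hoxb6 had at most 7 counts while Hoxb9 and Hoxb13 of the same cluster had 107 and 87 and then 196 and 50.

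**Figure D1:**
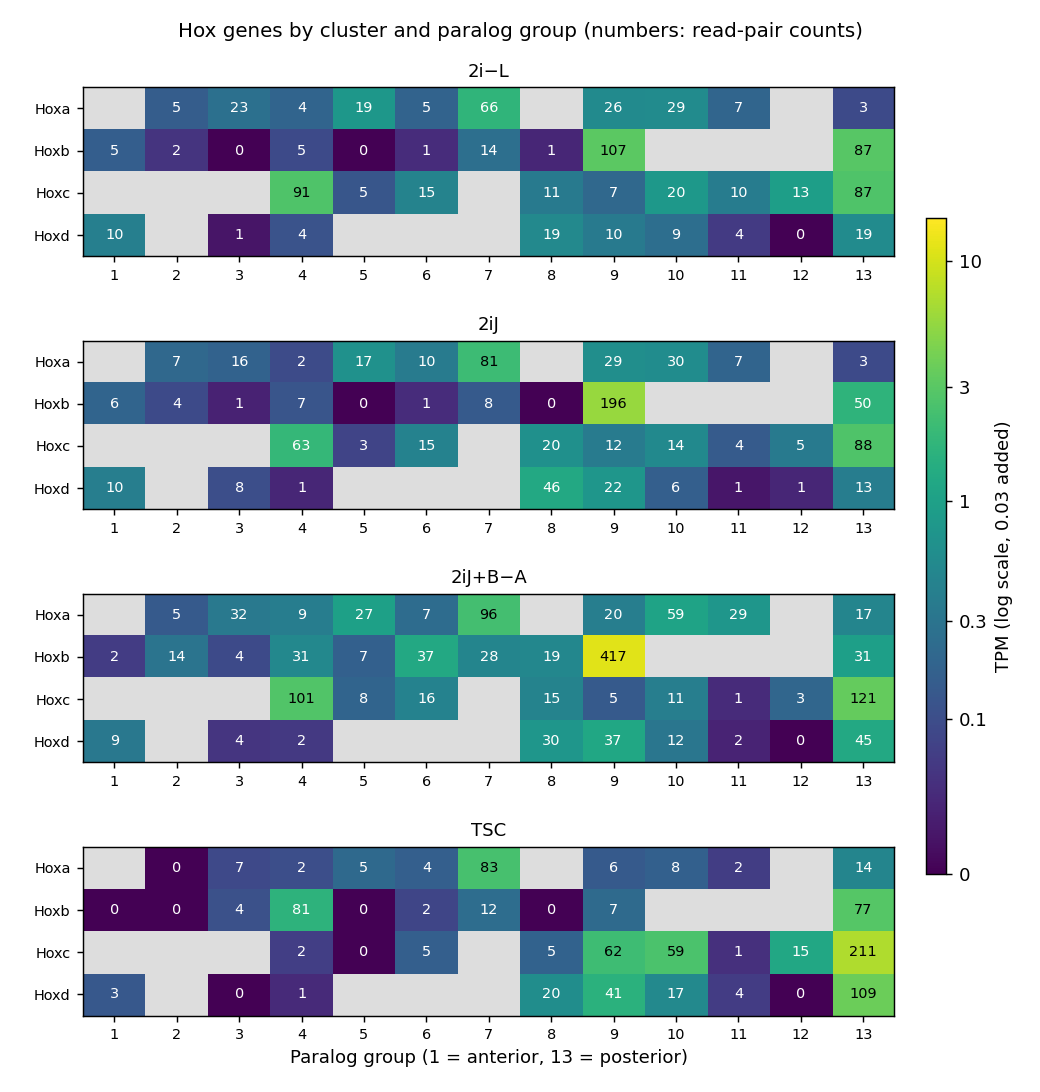
Each panel is a sample, with clusters as rows and paralog groups as columns. Colour is TPM on a log scale after adding 0.03 TPM, the number is the count of read pairs, and gray marks positions without a gene or not shown. Hoxb9 has 107, 196, 417 and 7 counts, and the row from Hoxb2 to Hoxb8 fills in 2iJ+B−A.

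13 of the 39 genes reached 1 CPM in at least 1 sample, the limit used for calls, among them Hoxa7, Hoxa10, Hoxb4, Hoxb9, Hoxb13, Hoxc4, Hoxc9, Hoxc10, Hoxc13, Hoxd8, Hoxd9 and Hoxd13. Because a gene that was high in a single sample passes this limit through that sample, counts of calls over all 39 genes with the limit removed are given as well. The other 26 genes had a highest level between 0.0291 CPM (Hoxd12) and 0.985 CPM (Hoxb6), with a median of 0.337 CPM, and none of them had more than 37 counts in a sample. Just inside the limit were Hoxd9, with a highest level of 1.17 CPM, and Hoxd8, with 1.34 CPM. Exons of Hoxb7 and Hoxb8, and of Hoxd3 and Hoxd4, overlap on the same strand, by 26.2%, 40.4%, 29.8% and 67.4% of the exon length of each in turn, so that read pairs in the shared stretch could not be assigned. The counts of these genes are therefore uncertain. So are those of Hoxa2, Hoxa3 and Hoxc5, which share 11.02%, 33.0% and 15.4% of their exons with other annotated identifiers. For Hoxa3 the other identifier is the further one of the same name.

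**Figure D2:**
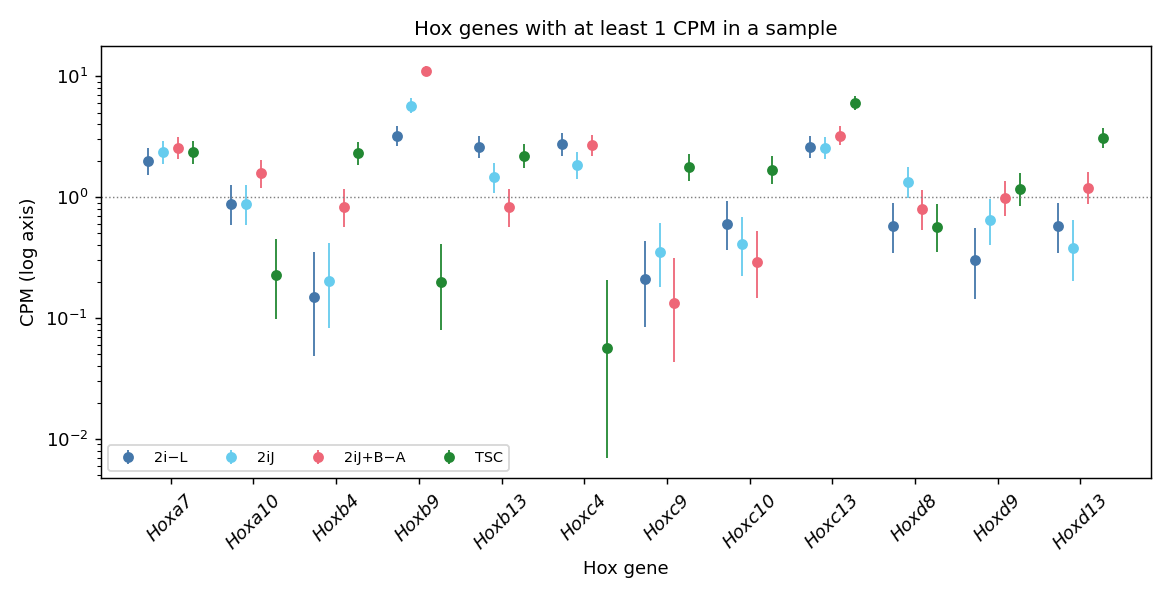
CPM of 12 of the Hox genes with at least 1 CPM in a sample, on a log axis. Each point is a sample, the bars are exact 95% Poisson intervals of the count, and the dotted line marks 1 CPM. TSCs lie far below the mESC samples for Hoxb9 and Hoxc4 and above them for Hoxb4, Hoxc9, Hoxc10, Hoxc13 and Hoxd13.

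RefSeq promoter windows were found for 22 of the 39 genes, 24 windows in all, each from 250 bases before to 50 bases after a transcription start on GRCm38.p6. Their median GC content was 57.7%, against 52.7% over all 32851 windows of the table, and their median number of CpG dinucleotides was 14.5 against 7. The sequence TTTATG, a core of the sites that Cdx factors bind, read on both strands, was present in 5 of the 24 windows (20.8%) and in 11.8% of all windows. GGCGCC, a palindrome of G and C, occurred in 5 of 24 windows (20.8%) against 11.9%, and TGATTNAT, a composite Pbx and Hox site, in 2 of 24 (8.33%) against 3.22%. All 3 motifs were read on both strands and none of them contains another. Such matches describe the letters and not binding. The 250 bases before the start are printed for Hoxb4 and Hoxb8, from the stretch of Hoxb with more counts in 2iJ+B−A, for Hoxc4, which was nearly absent in TSCs, and for Hoxd13, which was higher in TSCs. Capitals mark CpG dinucleotides. They lie on the plus strand of GRCm38.p6 at chr11:96318017-96318266 (Hoxb4), chr11:96281655-96281904 (Hoxb8), chr15:103034145-103034394 (Hoxc4) and chr2:74667975-74668224 (Hoxd13).
Hoxb4: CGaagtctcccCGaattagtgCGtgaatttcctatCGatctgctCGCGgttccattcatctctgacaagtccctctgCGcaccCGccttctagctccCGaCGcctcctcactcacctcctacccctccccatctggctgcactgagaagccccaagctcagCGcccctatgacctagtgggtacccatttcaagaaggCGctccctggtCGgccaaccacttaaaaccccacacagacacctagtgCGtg
Hoxb8: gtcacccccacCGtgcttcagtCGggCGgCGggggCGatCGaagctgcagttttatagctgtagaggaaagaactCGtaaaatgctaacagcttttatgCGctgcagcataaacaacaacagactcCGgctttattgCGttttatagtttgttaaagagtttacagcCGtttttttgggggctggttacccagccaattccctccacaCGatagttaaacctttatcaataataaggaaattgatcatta
Hoxc4: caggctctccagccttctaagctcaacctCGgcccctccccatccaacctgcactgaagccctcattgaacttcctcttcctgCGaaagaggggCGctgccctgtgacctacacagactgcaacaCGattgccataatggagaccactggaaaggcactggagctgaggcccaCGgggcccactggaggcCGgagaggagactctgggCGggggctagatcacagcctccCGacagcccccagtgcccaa
Hoxd13: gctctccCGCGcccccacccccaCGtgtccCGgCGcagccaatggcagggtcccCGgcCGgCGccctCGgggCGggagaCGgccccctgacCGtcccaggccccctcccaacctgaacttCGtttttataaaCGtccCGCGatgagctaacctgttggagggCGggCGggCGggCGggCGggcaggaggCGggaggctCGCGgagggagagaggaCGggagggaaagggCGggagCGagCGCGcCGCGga

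The 4 stretches differ widely in composition. Hoxd13 has 31 CpG dinucleotides and 74.4% GC, Hoxb4 has 14 and 58.0%, Hoxb8 has 12 and 44.4%, and Hoxc4 has 8 and 62.0%. Of these stretches, that of Hoxb8 holds TTTATG, read on both strands, at 2 places, and the other three do not hold it. GGCGCC occurs in the stretch of Hoxd13, 1 time. Gene positions in the rest of the text are those of NCBIM37, the build of the counts, and are not to be mixed with these.

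The comparison of 2iJ with 2i−L reads the addition of the JAK inhibitor, and no Hox gene passed the call there. None of the 13 genes was called in 2iJ compared with 2i−L, where 2.15% of the 14263 genes tested were called, 1.23% higher and 0.918% lower, and none of all 39 genes was called without the limit on level, where 1.34% of 23639 genes were, 0.770% higher and 0.567% lower. The median log2 ratio was 0.00 over the 13 genes and 0.00 over all genes tested. Hoxb9 had the clearest difference in counts among the higher genes, from 107 in 2i−L to 196 in 2iJ, a fold of 1.77 (95% interval 1.40 to 2.27). Hoxd8 went from 19 to 46 counts, a fold of 2.35 (1.35 to 4.24), which on the log2 scale with 0.5 CPM added was 0.78 and not called. Hoxb13, the most posterior gene of its cluster, was 1.8-fold lower in 2iJ (interval 1.26 to 2.60). Summed over all members, 2iJ was at 0.984 of 2i−L (0.901 to 1.07).

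With BMP4 and the ALK5 inhibitor, in 2iJ+B−A compared with 2iJ, the summed Hox level was 1.45-fold higher (interval 1.34 to 1.57). The Hoxb cluster held the larger part of the added level, with 7.95 and 15.7 CPM. None of the 13 genes passed the 2-fold call, where 8.97% of all genes tested passed it, 5.81% higher and 3.17% lower. Without the limit on level, 2 of the 39 genes, Hoxb6 and Hoxb8, were called higher, which is 5.13% of the genes beside 3.60% of 23639 genes called higher and 5.61% called either way. The median log2 ratio of the 13 genes was 0.38 and that of all genes tested was -0.0023, and over all 39 genes the median was 0.28. Of the 13 genes, Hoxa10 passed the limit on level only through 2iJ+B−A and Hoxd8 only through 2iJ. The log2 ratio was above 0 for 24 of the 39 Hox genes (61.5%) and for 45.7% of all genes with a count.

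Hoxb9 (ENSMUSG00000020875, on chromosome 11 from 96132771 to 96137909), a posterior gene of trunk and tail, had the most counts of any member in this sample. It was at 3.22, 5.71, 11.1 and 0.199 CPM, from 107, 196, 417 and 7 counts. The level was thus higher in each mESC condition with more added factors, and 1.95-fold higher in 2iJ+B−A than in 2iJ (1.64 to 2.32), a log2 ratio of 0.90, just under the call. Hoxd13 (ENSMUSG00000001819, on chromosome 2 from 74506367 to 74509656), which patterns digits and the genital region, was at 0.571, 0.379, 1.20 and 3.10 CPM. Its fold of 2iJ+B−A over 2iJ was 3.16 (1.68 to 6.39). Hoxb4 (ENSMUSG00000038692, on chromosome 11 from 96177998 to 96182952), known for its use in blood stem cells, was at 0.150, 0.204, 0.825 and 2.31 CPM, so that 2iJ+B−A lay between the other mESC samples and TSCs, 4.05-fold above 2iJ (1.75 to 10.9). Both Hoxd13 and Hoxb4 were nevertheless under the call, with log2 ratios of 0.95 and 0.91, since 0.5 CPM is large beside such levels.

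Genes near Hoxb4 also had more counts in 2iJ+B−A. Hoxb6 had 1, 1, 37 and 2, and Hoxb8 had 1, 0, 19 and 0. Hoxb5 had 7 counts in 2iJ+B−A and 0 in the other samples, and Hoxb2 had 2, 4, 14 and 0. These 4 genes thus had their highest count in 2iJ+B−A. They are named here after their values were seen. Hoxb6 was 33.8-fold higher in 2iJ+B−A than in 2iJ, with a wide interval of 5.71 to 1371 because 2iJ had 1 count. With 2iJ set to the floor of 3 counts in place of 0, Hoxb8 was at least 5.79-fold and Hoxb5 at least 2.13-fold higher, values that leave out the counting error of 2iJ+B−A. The exact intervals of the folds, which include it, began at 4.27 for Hoxb8 and at 1.32 for Hoxb5. Hoxb7 had 14, 8, 28 and 12 counts. Taken as a sum, the central genes Hoxb4 to Hoxb8 had 21, 16, 122 and 95 counts, and 2iJ+B−A over 2iJ was a fold of 6.97 (4.12 to 12.6). In TSCs, Hoxb4 alone had 81 of the 95 counts, beside 31 of the 122 in 2iJ+B−A. Hoxb1, the most anterior gene, had 6 and 2 counts in 2iJ and 2iJ+B−A, and Hoxb13, at the other end, was 1.77-fold lower in 2iJ+B−A (1.11 to 2.86).

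Outside Hoxb, the 2iJ+B−A sample had more counts for several posterior Hoxa and Hoxd genes. Hoxa10, a gene of the hindlimb and uterus, was at 0.872, 0.874, 1.57 and 0.228 CPM and 1.8-fold higher in 2iJ+B−A than in 2iJ (1.14 to 2.89). Hoxa11 had 7, 7, 29 and 2 counts and Hoxa13 had 3, 3, 17 and 14, which gives folds of 3.79 (1.62 to 10.2) and 5.18 (1.5 to 27.6). Hoxa9, next to Hoxa10 on its anterior side, had 29 and 20 counts in 2iJ and 2iJ+B−A, so not every posterior Hoxa gene had more counts. In Hoxd, the sum of the genes from Hoxd9 to Hoxd13 was 2.04-fold higher (1.41 to 3.00) while Hoxd8 was 1.68-fold lower (1.04 to 2.75). That sum had 43 and 96 counts in 2iJ and 2iJ+B−A, of which Hoxd13 had 13 and 45. Hoxd9 and Hoxd10 had folds of 1.54 (0.883 to 2.74) and 1.83 (0.635 to 5.94). The Hoxc cluster differed least, with a fold of 1.15 (0.959 to 1.37) for its sum, close to 1.19 (0.922 to 1.55) for all of Hoxd.

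Several mesoderm genes were higher in the same library. Of 10 primitive streak and mesoderm markers, 7 reached 1 CPM, 4 of these were called higher in 2iJ+B−A than in 2iJ and 1 lower. Over all genes tested, 5.81% were called higher there and 3.17% lower. The summed level of the mesoderm list was 10.8, 12.6, 126 and 419 CPM, and no member was at 0 in any sample. Hand1, which is also a TSC marker, took most of the sum in 2iJ+B−A and TSCs, at 1.62, 1.31, 103 and 383 CPM, and Foxf1 was at 0.0301, 0.0582, 3.65 and 1.68 CPM. T (brachyury), a defining marker of the streak, was at 2.95, 2.85, 0.160 and 2.51 CPM. Of 4 endoderm markers, 3 reached 1 CPM and 2 of these were called higher, with sums of 2.89, 2.59, 7.48 and 26.1 CPM. Of 5 neural markers, 4 were found among the identifiers and 3 reached 1 CPM, of which 1 was called lower and 0 higher, with sums of 41.3, 42.0, 45.5 and 78.5 CPM. The part of such cells in the Hox values was not tested, and in RNA from whole cultures fewer cells with a transcript and less transcript per cell cannot be told apart.

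**Figure D3:**
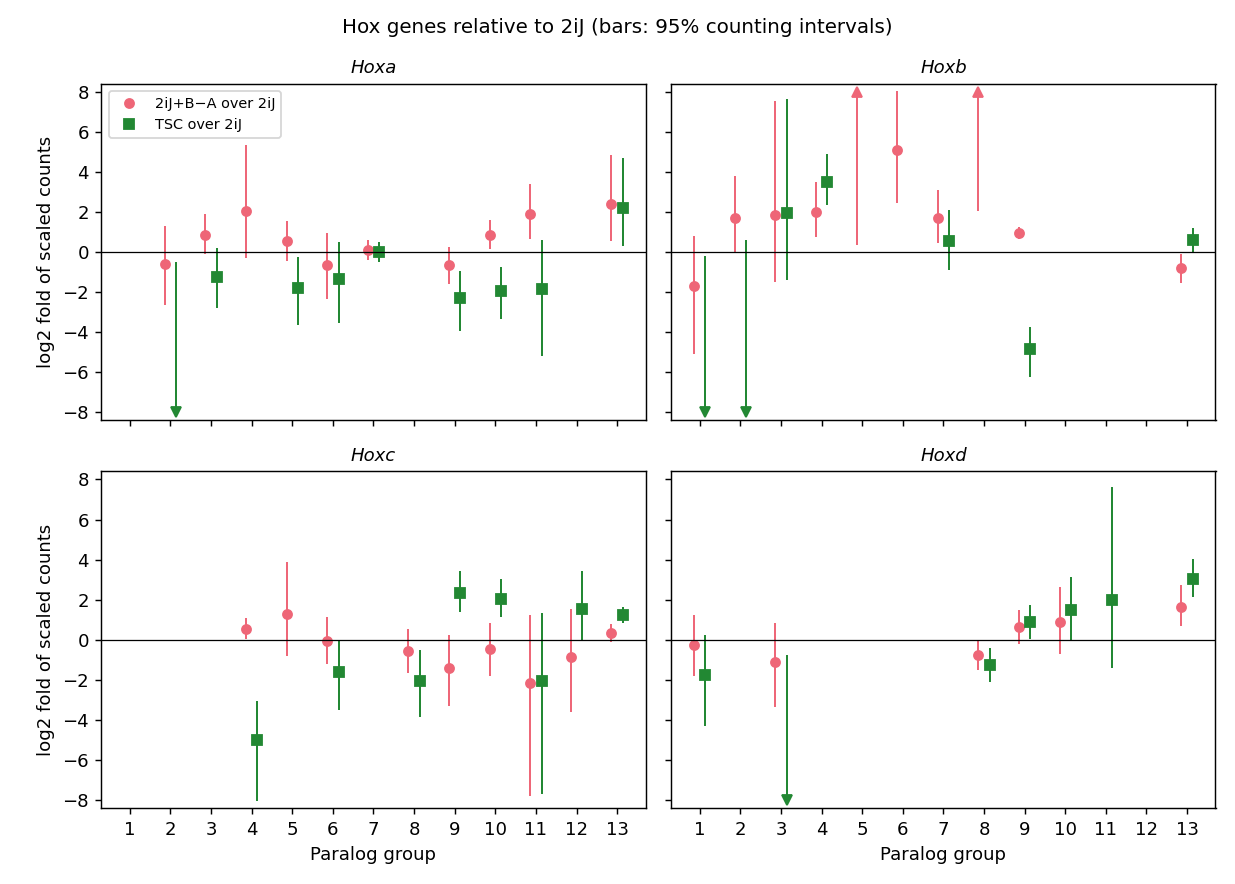
log2 fold of scaled counts over 2iJ, without a pseudocount, for 38 Hox genes by cluster and paralog group, with exact 95% counting intervals. Circles are 2iJ+B−A over 2iJ and squares TSC over 2iJ, triangles at the edge mark genes at 0 in 1 of the 2 samples, intervals are cut at 8, and genes with at most 3 counts in both samples are left out. From Hoxb2 to Hoxb9 the circles and upward triangles lie above 0, and in Hoxc the squares change from below 0 at groups 4 to 8 to above 0 at groups 9, 10, 12 and 13.

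The summed Hox level of TSCs was 1.23-fold that of 2iJ (1.13 to 1.33), while single genes differed in both directions. 7 of the 13 genes were called, where 37.0% of all genes tested were. Hoxb4, Hoxc9, Hoxc10, Hoxc13 and Hoxd13 were higher (5 genes, beside 19.4% of all genes higher), and Hoxb9 and Hoxc4 were lower (2 genes, beside 17.6% lower). Over all 39 genes without the limit on level, 8 were called (20.5%) beside 23.5% of 23639 genes, so the share called over all members was near that of other genes. The gene added by removing the limit was Hoxa9, which was lower. Compared with 2iJ+B−A, 8 of the 13 genes were called, beside 32.6% of all genes, and 11 of all 39 (28.2%) beside 20.9%. 5 of the 8 were higher in TSCs (16.4% of all genes tested were), namely Hoxb4, Hoxb13, Hoxc9, Hoxc10 and Hoxd13, and Hoxa10, Hoxb9 and Hoxc4 were lower (16.2% of all genes tested were). Removing the limit added Hoxa11, Hoxb6 and Hoxb8, all lower. Median log2 ratios of the 13 genes were 0.55 over 2iJ and 0.46 over 2iJ+B−A, both beside 0.00 over all genes tested, but Hoxb4, Hoxc9, Hoxc10 and Hoxd9 passed the limit only through TSCs, where they were high. Hoxa10 passed it only through 2iJ+B−A, at 1.57 CPM, and Hoxd8 only through 2iJ, at 1.34 CPM. Over all 39 genes the medians were -0.0033 and -0.28, and the ratio was above 0 for 16 (41.0%) and 13 (33.3%) of them, beside 43.4% and 45.3% of all genes with a count. Both comparisons share the TSC sample.

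The genes called lower were nearly absent in TSCs. Hoxb9, which led in 2iJ+B−A, was 28.6-fold lower in TSCs than in 2iJ (13.6 to 72.1) and 55.7-fold lower than in 2iJ+B−A (26.8 to 139). Hoxc4 (ENSMUSG00000075394, on chromosome 15 from 102849367 to 102867274), an anterior trunk gene at the end of its cluster, was at 2.74, 1.83, 2.69 and 0.0570 CPM, from 91, 63, 101 and 2 counts. The 3 mESC samples were thus close together and TSCs far below them, with a ratio of 32.2-fold to 2iJ that has an interval of 8.55 to 272. The gene next to it, Hoxc5, had 5, 3, 8 and 0 counts, and Hoxc6 15, 15, 16 and 5. As a sum, the central genes Hoxc4 to Hoxc8 were 8.61-fold lower in TSCs than in 2iJ (4.72 to 17.2).

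The posterior end of Hoxc went the other way. Hoxc9 was at 0.210, 0.349, 0.133 and 1.77 CPM, Hoxc10 at 0.601, 0.408, 0.293 and 1.68 CPM, and Hoxc13, a gene of hair and nail, at 2.62, 2.56, 3.22 and 6.01 CPM. In each case TSCs were the highest of the 4 samples. Their folds over 2iJ were 5.05 (2.70 to 10.3), 4.12 (2.27 to 8.0) and 2.35 (1.82 to 3.04), and the sum of the genes from Hoxc9 to Hoxc13 was 2.77-fold higher (2.25 to 3.43). Hoxc11 was an exception within this stretch, with 10, 4, 1 and 1 counts. Hoxd was higher at the same end, where the sum of the genes from Hoxd9 to Hoxd13 was 3.89-fold that of 2iJ (2.77 to 5.57). Hoxd13 was 8.20-fold higher in TSCs than in 2iJ (4.6 to 15.9), whereas Hoxd8 had 19, 46, 30 and 20 counts, or 0.571, 1.34, 0.799 and 0.570 CPM. Hoxd9 was at 0.301, 0.641, 0.985 and 1.17 CPM, with a fold over 2iJ of 1.82 (1.06 to 3.21).

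Posterior genes of Hoxa did not share this direction. The sum of the genes from Hoxa9 to Hoxa13 was 2.35-fold lower in TSCs than in 2iJ (1.51 to 3.74). Hoxa10 was 3.83-fold lower (1.72 to 9.68) and Hoxa9, with 29 counts in 2iJ and 6 in TSCs, 4.94-fold lower (2.02 to 14.6), while Hoxa13 had 3 and 14 counts. Hoxa7, at 1.98, 2.36, 2.56 and 2.36 CPM, had a similar level in all 4 samples, and its fold of TSC over 2iJ was 1.00 (0.729 to 1.38). Hoxb13 was at 2.62, 1.46, 0.825 and 2.19 CPM, and thus highest in 2i−L and lowest in 2iJ+B−A. Hoxb4 was 11.3-fold higher in TSCs than in 2iJ (5.25 to 29.0) although its neighbours Hoxb5, Hoxb6 and Hoxb8 had 0, 2 and 0 counts there. Hoxb7 had 12 counts in TSCs and 8 in 2iJ, and Hoxb3, on the other side of Hoxb4, had 4 and 1.

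Fibroblasts express many Hox genes, so fibroblast and feeder markers were read in the same libraries. Of 14 markers, 1, 0, 0 and 3 were at 0, and the list summed to 52.6, 46.5, 47.9 and 18.03 CPM. Of the 10 that reached 1 CPM, 2 were called higher and 1 lower in 2iJ+B−A than in 2iJ, beside 5.81% and 3.17% of all genes tested. In TSCs compared with 2iJ, 1 was called higher and 4 lower, beside 19.4% and 17.6% of all genes tested. In TSCs, Col1a2, Dcn and Lum were at 0 and Col3a1 had 1 count. The markers differed in direction between 2iJ and 2iJ+B−A. Pdgfra, also on the mesoderm list, was at 1.98, 2.504, 10.4 and 5.04 CPM and Prrx1 at 0.331, 1.08, 2.93 and 0.570 CPM, both called higher in 2iJ+B−A, and Lum had 0, 3, 21 and 0 counts. Col1a1 was at 21.5, 18.8, 4.34 and 1.68 CPM and was called lower, and Col1a2 was at 9.20, 8.91, 5.35 and 0 CPM. The part of fibroblasts in the Hox values of the mESC samples was not tested.

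Set out by cluster, Hoxa held the largest share of the Hox counts, which are not corrected for length, in every sample, with 45.01%, 41.2%, 38.1% and 42.8%, and Hoxd the smallest in the 3 mESC samples, with 7.50%, 10.5% and 8.62%. In TSCs the smallest share was that of Hoxb, at 14.2%, beside 15.1% for Hoxd. The Hoxa share was not spread over its cluster. Hoxa groups 4 to 8 held 9.28%, 10.7%, 8.50% and 7.28% of the Hox counts. Hoxa groups 9 to 13 held 6.42%, 6.71%, 7.64% and 2.32%, so most Hoxa counts lay outside these groups. The summed levels were 13.71, 12.3, 16.6 and 15.8 CPM for Hoxa and 6.67, 7.95, 15.7 and 5.21 CPM for Hoxb. They were 7.79, 6.52, 7.48 and 10.3 CPM for Hoxc and 2.29, 3.15, 3.75 and 5.56 CPM for Hoxd. Hoxb thus had the highest level in 2iJ+B−A and the lowest in TSCs, but this rested on Hoxb9. The other 9 Hoxb genes summed to 3.46, 2.24, 4.61 and 5.01 CPM, 2.05-fold higher in 2iJ+B−A than in 2iJ (1.56 to 2.72) and 2.24-fold higher in TSCs than in 2iJ (1.70 to 2.96). Hoxc and Hoxd were highest in TSCs. Among positions, the posterior genes of groups 9 to 13 took 43.2%, 46.7%, 49.5% and 49.0% of the counts. The central genes of groups 4 to 8 took 25.7%, 26.6%, 26.5% and 17.2%, and thus held their lowest share in TSCs.

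**Figure D4:**
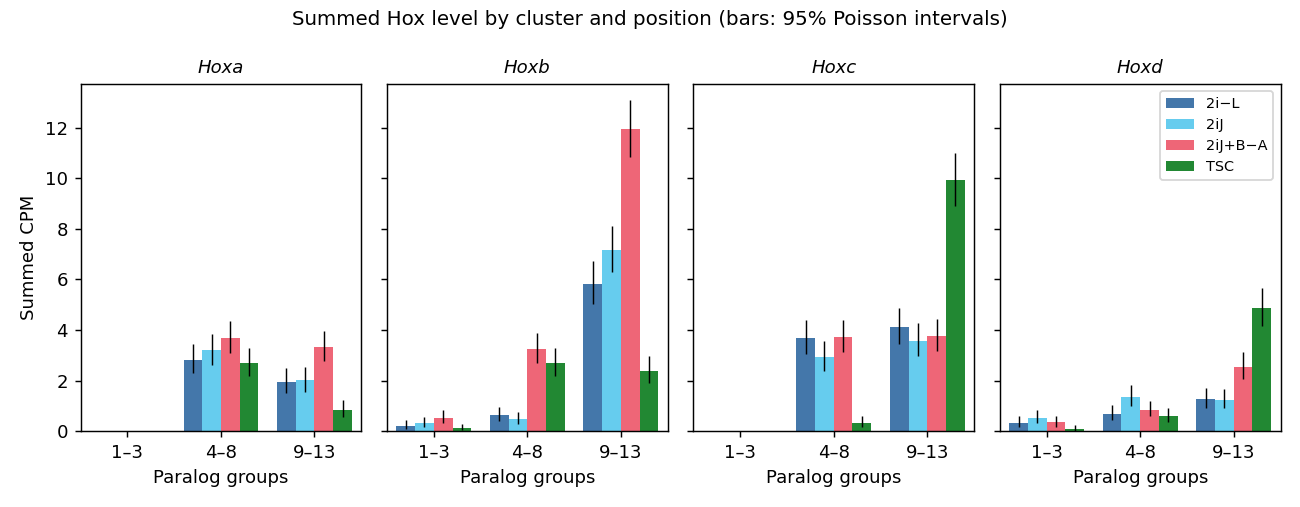
Summed CPM of the Hox genes of each cluster, split into paralog groups 1 to 3, 4 to 8 and 9 to 13, with exact 95% Poisson intervals. Bars are the 4 samples, Hoxc has no gene in groups 1 to 3, and Hoxa groups 1 to 3 are not shown. Hoxb groups 4 to 8 are at 0.631, 0.466, 3.25 and 2.71 CPM, and in TSCs 2.31 CPM of this is Hoxb4. Hoxc groups 4 to 8 and 9 to 13 change in opposite directions in TSCs.

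Genes flanking the clusters were read beside the members. Of 11 listed neighbours, 10 reached 1 CPM, and none was called in 2iJ compared with 2i−L or in 2iJ+B−A compared with 2iJ. In TSCs 1 was called lower than in 2iJ, Ttll6, which encodes a tubulin-modifying enzyme and lies before Hoxb13 on chromosome 11 from 95995100 to 96026765. It had 859, 559, 739 and 1 counts, or 25.8, 16.3, 19.7 and 0.0285 CPM, a ratio of 572-fold to 2iJ with an interval of 102 to 22612. Gm53, an annotated protein-coding gene between Hoxb13 and Hoxb9 (chromosome 11 from 96112419 to 96126182), was named after its values were seen. It had 726, 815, 921 and 2 counts, or 21.8, 23.7, 24.5 and 0.0570 CPM, and the ratio of 2iJ to TSC was 417-fold (115 to 3446). Ttll6, Gm53 and Hoxb9 were thus nearly absent in TSCs, and Hoxb13, which lies between Ttll6 and Gm53, was at 2.19 CPM there.

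Of 31 non-coding genes within the clusters or within 20 kb of them, 1 reached 1 CPM. This was Gm15051, in the Hoxa cluster, with 21, 29, 29 and 66 counts and 1.88 CPM in TSCs, a fold over 2iJ of 2.23 (1.42 to 3.57). Its log2 ratio was under the call in every comparison, and the others were too low to be tested with the limit. Without it, Gm11538 was lower in TSCs than in 2iJ (log2 ratio -1.03) and Hoxa11as was lower in TSCs than in 2iJ+B−A (log2 ratio -1.49). Hoxa11as, the antisense gene of Hoxa11 and below the limit, had 1, 9, 34 and 0 counts beside 7, 7, 29 and 2 for Hoxa11. Both were highest in 2iJ+B−A and nearly absent in TSCs. The exons of the pair overlap over 38.6% of Hoxa11, and the strand of the read pairs separates them here. The miRNA hairpins annotated in the clusters, such as Mir10a, Mir10b and Mir196b, were at 0 in the mRNA libraries, which do not capture mature miRNAs. Mir10a and Mir196b also overlap exons of Hoxb4 and Hoxa9 on the same strand, where read pairs could not be assigned. The reason for the value of 0 was not tested.

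TALE homeodomain proteins of the Pbx, Meis and Pknox families bind DNA together with Hox proteins, and all 9 listed genes reached 1 CPM. None was called in 2iJ compared with 2i−L. In 2iJ+B−A, 1 of 9 was called higher than in 2iJ and 0 lower, beside 5.81% and 3.17% of all genes tested. The gene called was Meis1, at 1.29, 1.78, 4.53 and 28.9 CPM. In TSCs, 4 of 9 were called higher than in 2iJ and 3 lower, beside 19.4% and 17.6% of all genes tested. Within the Meis family the members parted. Meis2 was at 15.9, 25.1, 36.8 and 1.82 CPM, 13.8-fold lower in TSCs than in 2iJ (10.7 to 18), whereas Meis1 was 16.2-fold higher (12.5 to 21.4). Pbx3 was at 10.8, 8.74, 4.47 and 42.8 CPM, 4.90-fold higher (4.33 to 5.57).

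**Figure D5:**
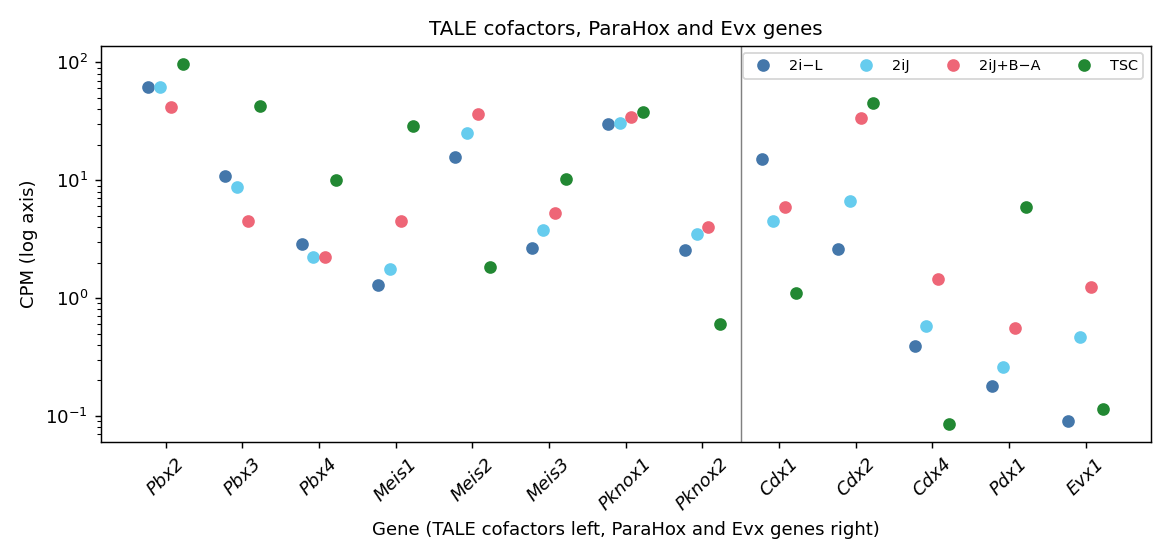
CPM of 8 of the 9 TALE cofactors and of the 5 ParaHox and Evx genes that reached 1 CPM, on a log axis, with each point a sample. Meis2 is lowest in TSCs, at 1.82 CPM, Pbx3 and Meis1 are highest there, at 42.8 and 28.9 CPM, and Cdx2 is at 2.62, 6.70, 33.6 and 45.1 CPM.

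Of 8 ParaHox and Evx genes, relatives of the Hox genes, 5 reached 1 CPM. Cdx2, a regulator of posterior Hox genes and of trophectoderm, was at 2.62, 6.70, 33.6 and 45.1 CPM. It was the single member of the list called higher in 2iJ+B−A than in 2iJ, 5.02-fold (4.36 to 5.80), and none was lower. Cdx1 was at 15.3, 4.51, 5.88 and 1.11 CPM and highest in 2i−L. In 2iJ compared with 2i−L, Cdx2 was called higher and Cdx1 lower. Evx1, which lies beyond Hoxa13 on chromosome 6 from 52263492 to 52268372, was at 0.0902, 0.466, 1.25 and 0.114 CPM. It was 2.69-fold higher in 2iJ+B−A than in 2iJ (1.5 to 5.07), under the call with a log2 ratio of 0.86. In TSCs, 2 of 5 were called higher than in 2iJ, Cdx2 and Pdx1 (5.93 CPM), and 1 lower, Cdx1. Over all genes tested, 19.4% were higher and 17.6% lower.

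Genes of the posterior and retinoid signals that open Hox clusters were mixed. Of 19 listed genes 17 reached 1 CPM. In 2iJ+B−A compared with 2iJ, 4 of these were called higher and 6 lower, beside 5.81% and 3.17% of all genes tested. The 4 largest log2 ratios of the list, with 0.5 CPM added, were decreases. T (brachyury), the mesoderm marker described above, was 17.9-fold lower (7.92 to 49.9), Nkx1-2, a homeobox gene of the tail bud, 4.63-fold lower (4.04 to 5.32), Wnt3, a ligand of the primitive streak, 4.10-fold lower (3.30 to 5.13) and Aldh1a2, which makes retinoic acid, 4.44-fold lower (3.03 to 6.67). On the scale of counts alone Fgf8, a ligand of the FGF family that is named after its values were seen, was 23.5-fold lower (6.13 to 200.4), with 43 counts in 2iJ and 2 in 2iJ+B−A. The 4 genes called higher in 2iJ+B−A had folds over 2iJ between 2.085 and 2.605. In TSCs, 3 of 17 were called higher than in 2iJ and 10 lower, beside 19.4% and 17.6% of all genes tested. Cyp26a1, which degrades retinoic acid, was at 0.210, 0.262, 0.399 and 24.0 CPM, 91.7-fold above 2iJ (48.1 to 201), and Otx2, a head gene, at 29.5, 44.9, 26.4 and 0.199 CPM, 225-fold lower (109 to 561). In 2iJ compared with 2i−L, 0 were higher and 1 was lower.

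All 23 listed Polycomb and Trithorax genes, which hold Hox clusters silent or active, reached 1 CPM. None was called in 2iJ compared with 2i−L. In 2iJ+B−A compared with 2iJ, 2 were called higher, Cbx8 among them, and 0 lower, beside 5.81% and 3.17% of all genes tested. Cbx8, which encodes a subunit that reads the Polycomb mark, was at 2.11, 2.39, 6.39 and 24.8 CPM. In TSCs, 3 of the 23 were called higher than in 2iJ and 6 lower, beside 19.4% and 17.6% of all genes tested. Cbx8 was 10.4-fold higher there (8.26 to 13.2) and Cbx2 2.84-fold (2.66 to 3.02), and Phc1, a further Polycomb subunit, was at 223, 243, 141 and 45.6 CPM, 5.33-fold lower (5.05 to 5.62). Among the remaining markers, all 6 of the pluripotent list were called lower in TSCs than in 2iJ and all 7 of the TSC list higher, with 3 of the latter higher and 1 lower in 2iJ+B−A than in 2iJ.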

How the data were processed

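The data are RNA-seq libraries from 4 samples, each a condition of its own, prepared by the submitters with a directional poly-A protocol and sequenced in pairs. The authors trimmed reads at a quality cutoff of 20, mapped them to NCBIM37 with STAR 2.4.2a and deposited whole-number counts of read pairs per Ensembl gene, without normalization; the annotation release is not given in the sources used here. The submitters' processing notes also name CASAVA 1.8.2 and cutadapt. Read pairs that mapped to several places, 6.72% to 7.01%, are not in the deposited counts of genes. The count on the transcript strand was used, and the opposite strand held 3.02% to 3.32% of all counts. Lines without a gene, which held the unmapped, multimapping, ambiguous and off-gene read pairs, were left out of library sizes, and counts on genes were 82.2% to 83.6% of all. Of 37620 identifiers, 37205 matched the GENCODE annotation of the same build.

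TMM factors (edgeR 4.0.16) and, as an alternative, DESeq2 1.42.0 size factors were computed in R 4.3.3, and the other steps in Python 3.11.15 with scipy 1.17.1. With 1 sample per condition no model with replicates could be fitted and no p-value is given. The comparison took in the 14263 genes that reached 1 CPM in any sample, after adding 0.5 CPM. TPM used union exon lengths. Library totals were between 33913984 and 36964392, so that 3 counts are at most 0.0902 CPM. The members, the gene lists and the position groups were chosen with earlier results of these data known. Values in every sample are given for Hox genes at 1 CPM or more in a sample, the others by range and count, and at most 4 genes per list are named by size of difference, with exceptions marked. Some genes are not reported here by name. Alternatives were other scalings, no filter, pseudocounts of 0.1 and 1 CPM, unstranded counts, a log2 limit of 2, a floor of 10 counts and 2i−L as reference. Scripts were tested on simulated counts.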

Additional observations from a re-analysis of the deposited data

Results flagged for a closer look

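Counts on the strand opposite to a Hox gene, which no comparison uses, made up a share whose 95% interval lay above that of the whole library (3.02% to 3.32%) in 6 cases with more than 3 such counts. Over Hoxa2 there were 8 in 2i−L beside 5 on the transcript strand, and 4 in TSCs beside 0. Over Hoxa11 there were 4 in 2iJ and 16 in 2iJ+B−A, the latter 35.6% of both strands (95% Clopper-Pearson interval 21.9% to 51.2%). Hoxa11as, whose exons overlap 38.6% of Hoxa11, had 34 counts in 2iJ+B−A, and read pairs in the shared stretch can be in both numbers. Over Hoxb3 there were 4 in TSCs beside 4 on the transcript strand, and exons of the antisense gene Hoxb3os overlap 37.9% of Hoxb3. Over Hoxc13 there were 8 in 2i−L, 8.42% of both strands (3.71% to 15.9%), while the other samples had 1 to 3. Summed over all Hox genes, the opposite strand held 2.22%, 1.72%, 2.21% and 1.97% of the counts, in the same order of samples, below the share over the whole library. Pooled over the genes with at least 1 CPM in a sample, that share was 2.19%, 2.11%, 2.07% and 2.30%, near that of the Hox genes. The median of these genes was 0.435%, 0.370%, 0.325% and 0.468%. The source of these counts was not tested.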

How the results depend on the processing

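No paired analysis was possible because each group has 1 sample. None of the 15 called differences of named Hox genes changed direction under DESeq2 size factors, total counts, pseudocounts of 0.1 and 1 CPM or unstranded counts. Of these calls, 5 were lost with a pseudocount of 1 CPM, 5 more were gained with 0.1 CPM, and 0 changed under the other scalings or unstranded counts. For 2iJ against 2i−L, 1 gene was called with 0.1 CPM (Hoxd8) instead of 0. For 2iJ+B−A against 2iJ, with 0 calls, total counts and unstranded counts each gave 1 (Hoxb6, which then passed the limit of 1 CPM), no filter gave 2, 0.1 CPM gave 2 (Hoxb4 and Hoxd13), and 2i−L as the reference gave 3 (Hoxb4 and Hoxb9 higher, Hoxb13 lower). A log2 limit of 2 left 3 of 7 calls for TSC against 2iJ and 2 of 8 for TSC against 2iJ+B−A, and 1 CPM left 5 of the latter 8. With unstranded counts the sums of Hoxa were 11.4, 10.5, 14.1 and 13.1 CPM in 2i−L, 2iJ, 2iJ+B−A and TSCs, lower than the 13.71, 12.3, 16.6 and 15.8 CPM of the transcript strand, and the cause was not tested. With 10 counts as the floor, 20 genes were detected in 2i−L, 19 in 2iJ and 14 in TSCs, and the count for 2iJ+B−A was 24. In alternatives chosen after seeing the data, the fold of Hoxb4 to Hoxb8 in 2iJ+B−A over 2iJ was between 6.93 and 7.22. Depth limits the members under 1 CPM, where a few counts decide a fold.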
